A study of Mus musculus with 23 samples.

Results

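Spleens of the same genotype were compared with each other in 13 mice on one-colour Agilent whole-genome arrays, 7 wild type for Atm and 6 Atm knockout, out of 23 arrays in the series. The members were every array whose title ends in WT or KO; the remaining 10 arrays held lymphoma lines. Each gene was centred on the mean of its own genotype, so that the difference between genotypes was removed and only the spread among spleens of one kind remained. The wild-type spleens, labelled ATMWT.CD3eKO, came from 4 males (WT1 to WT4) and 3 females (WT5 to WT7), and the knockout spleens, labelled ATMKO.CD3eKO, all came from females (KO1 to KO6). Every mouse of both groups lacked Cd3e, a gene whose loss leaves a mouse without mature T cells, and was of mixed C57BL/6 x 129 strain. The ATM kinase is activated by broken DNA and starts the cell's repair and checkpoint response. The labels call the spleens normal and give no age, and nothing in them says which mice shared a litter or a day of killing. Each mouse was hybridised once, so the spread described here holds the mouse, the dissection, the RNA preparation and the array together, and p-values measure only the spread between these samples.

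The mouse spleen is both a lymphoid organ and, in its red pulp, a site of blood formation. Erythroblasts and developing granulocytes arise there beside B cell follicles, and their number follows the demand for blood cells, infection and stress. The tissue is held together by reticular fibroblasts, smooth muscle and a lining of venous sinus endothelium, and it houses plasma cells that secrete antibody. Immediate early genes such as Fos respond to handling of tissue within minutes. In RNA of a whole spleen, fewer cells of a type and less RNA per cell cannot be told apart, which holds for every marker list below.

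The arrays carried 18217 genes with a symbol, and 12299 were well above background on all 13 spleen arrays. The share of spots well above background was 61.7% to 66.9% in wild-type and 62.6% to 67.7% in knockout spleens. Levels are log2 of the processed signal relative to the 75th percentile of the array, so a gene at 0 is as bright as that percentile. Atm lay between -0.66 and 0.00 in the wild-type and between -2.69 and -2.07 in the knockout spleens, with no overlap. Cd3e lay between -4.65 and -3.86 in all 13, and the labels do not say whether either probe lies in the deleted part of its gene. Xist was well above background in 9 of 9 females and 0 of 4 males, and each of Ddx3y, Eif2s3y and Kdm5d, which lie on the Y chromosome, in 4 of 4 males and 0 of 9 females. The 13 arrays lay on 5 slides. Slide 1 carried WT1, WT5 and KO1, slide 2 carried WT2, KO2 and KO3, slide 3 carried WT3, WT7 and KO4, slide 4 carried WT6 and KO6, and slide 5 carried WT4 and KO5. Slide 1 was scanned on a day of its own, slides 2 to 4 on another and slide 5 on another, so that scan day cannot be told apart from slide for slides 1 and 5. The 3 arrays of slide 1 had the lowest shares of spots well above background, 61.7% to 62.6%, against 64.8% or more elsewhere. The animal numbers in the titles fell into a lower and a higher range, with WT5 to WT7, KO5 and KO6 in the higher one.

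Most genes differed little between spleens of a genotype. The residual SD, which is the SD of a gene's genotype-centred log2 level over the 13 arrays with 11 degrees of freedom, had a median of 0.210 and quartiles of 0.154 and 0.312. It was at least 0.5 in 1015 genes, 8.25% of those tested, at least 1 in 161 genes and at least 2 in 3 genes. These 3 were Col6a4, a collagen VI chain, Evc, a ciliary protein of hedgehog signalling, and Gcnt1, an enzyme that branches O-linked glycans. Dim genes spread more than bright ones, with a median SD of 0.335 over the 3075 dimmest genes and of 0.166 over the 3075 brightest. For genes with a further probe, the residuals of the probes correlated with a median r of 0.54 over 4446 genes, of 0.93 over the 201 genes with an SD of at least 0.5, and of 0.97 over the 24 genes with an SD of at least 1. The minimum of 0.5 fell in a continuous distribution, with Cspg4 and Myof just inside and Fam20c and Gsx1 just outside, all 4 at 0.50 after rounding.

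**Figure D1:**
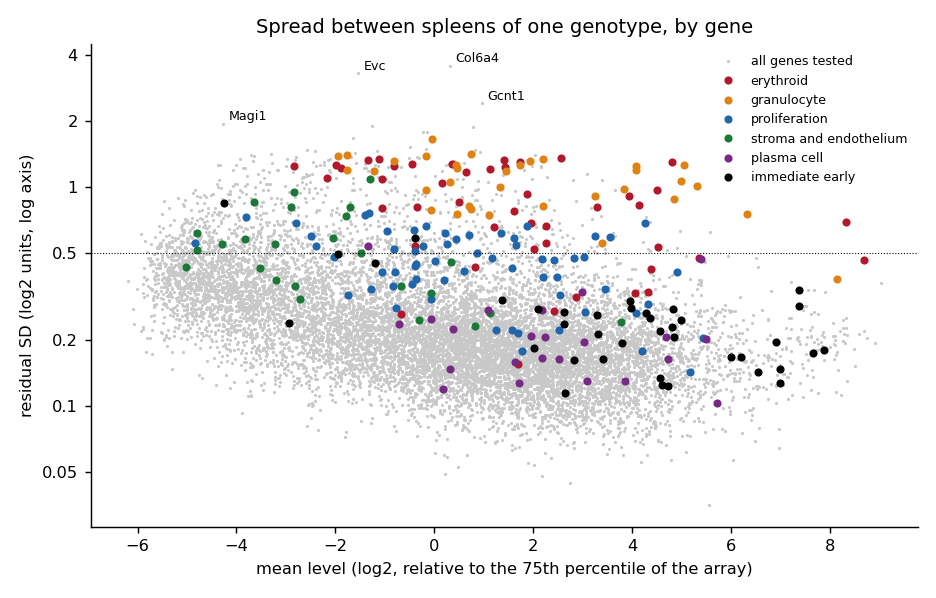
Residual SD of each of the 12299 genes (log axis, log2 units) against its mean level (log2, relative to the 75th percentile of the array), with the members of 6 gene lists in colour and the minimum of 0.5 as a dotted line. Most granulocyte genes (33 of 34) and 35 of 45 erythroid genes lie on or above the line, while most plasma cell and immediate early genes lie within the bulk of all genes.

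Among the 30 genes of largest SD several are known from granulocytes. Itgb2l, an integrin beta chain, had an SD of 1.66, Ceacam10 of 1.47, Lcn2, the neutrophil siderophore-binding protein, of 1.41, Elane, neutrophil elastase, of 1.40, and Prtn3, proteinase 3, of 1.38. Others correlated at 0.96 or more with Alas2, the erythroid gene described next, as Apol10a, Apol10b and Apol11b of the apolipoprotein L family, with SDs of 1.46, 1.44 and 1.40, and Btnl10 with 1.37. Several belonged to no list, as Magi1, a junctional scaffold protein, Syt6, a synaptotagmin, Slc15a2, a peptide transporter, and Amy1, an amylase, with SDs of 1.95, 1.9, 1.87 and 1.52. No difference in spread between genotypes was detected. The mean over arrays of the root mean square residual was 0.318 ± 0.067 (SD, n = 7) in wild-type and 0.323 ± 0.075 (SD, n = 6) in knockout spleens. Their difference of 0.005 had p = 0.90 in an exact two-sided permutation test over 1716 arrangements. Which genes spread was also shared, with a Spearman correlation across genes of 0.70 between the SDs of the 2 genotypes, genes not being independent replicates. The 100 genes of largest SD in wild-type spleens had a median SD of 1.18 in the knockout spleens, which did not enter that choice, against 0.212 for all genes.

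Red cell genes moved from spleen to spleen as a single set. Terminal erythroblasts build haemoglobin from globin chains and haem, insert a spectrin-based membrane skeleton, and are driven by the transcription factors Gata1 and Klf1. Of 53 listed erythroid genes, 46 were on the array with a symbol and 45 passed the filter, with a median SD of 0.824 against 0.210 for all genes, and 35 of the 45 had an SD of at least 0.5. Alas2, the erythroid enzyme that opens haem synthesis, stood for the list. Its level had a lowest, median and highest value of 3.17, 4.67 and 5.61 in the 7 wild-type spleens and of 2.53, 4.63 and 5.45 in the 6 knockout spleens. WT1, WT6 and KO6 were the low spleens, at 3.62, 3.17 and 2.53, and WT2, KO1 and KO2 the high ones, at 5.61, 5.41 and 5.45, so that both genotypes covered nearly the same range.

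A gene was said to rise or fall with Alas2 where its slope on the Alas2 level, with genotype in the model, passed limma's moderated test at a Benjamini-Hochberg adjusted p below 0.05 over all genes. By this test 260 genes (2.11%) rose and 28 (0.228%) fell with Alas2, and 40 of the other 44 erythroid genes rose. Their median correlation with Alas2 was 0.94, and it was 0.93 in the wild-type and 0.95 in the knockout spleens taken alone. All 14 membrane genes rose, with a median SD of 1.25, as did all 10 cytosolic genes, both globins measured, Hba-a1 and Hbb-bt, and the 3 genes of iron uptake and erythropoietin signalling, Epor, Tfrc and Tfr2. Among the 10 other haem synthesis genes 8 rose, and Uros and Slc25a38 did not pass (r = 0.62 and 0.50). Among the transcription factors Gata1, Klf1 and Gfi1b rose, and Nfe2 and Zfpm1 did not pass (r = 0.70 and 0.67).

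The promoters of the list are shown for 2 members of different function, haem synthesis and membrane skeleton, because the erythroid factor Gata1 is itself among the genes that rose with Alas2. Promoter windows came from RefSeq on GRCm38.p6 and span 300 bases, 250 before and 50 after the first listed start, and 32 of the 45 passing members had one. Capitals mark AGATAA, or TTATCT where it lies on the other strand. The Alas2 window is chrX:150547167-150547466 on the plus strand, and that of Epb42, a protein of the red cell membrane skeleton, is chr2:121036828-121037127 on the minus strand, both written 5′ to 3′.
Alas2: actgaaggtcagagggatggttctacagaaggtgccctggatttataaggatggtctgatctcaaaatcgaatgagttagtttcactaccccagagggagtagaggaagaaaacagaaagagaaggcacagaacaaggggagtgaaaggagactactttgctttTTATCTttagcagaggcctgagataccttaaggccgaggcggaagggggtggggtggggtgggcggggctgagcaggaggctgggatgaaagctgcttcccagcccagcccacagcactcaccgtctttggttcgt
Epb42: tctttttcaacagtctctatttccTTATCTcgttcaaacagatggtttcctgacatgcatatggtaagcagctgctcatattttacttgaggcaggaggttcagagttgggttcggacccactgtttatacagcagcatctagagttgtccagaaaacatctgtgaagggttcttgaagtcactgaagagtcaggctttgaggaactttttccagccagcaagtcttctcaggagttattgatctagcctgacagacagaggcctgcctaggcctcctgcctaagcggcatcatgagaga
The motif was present on either strand in 9 of 32 member windows (28.1%) and in 6.97% of the 9877 windows of all tested genes, which is a description of letters and not of binding.

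Slc4a1, the anion exchanger of the red cell membrane, shows the size of the pattern. Its level ran from 2.81 through a median of 4.94 to 5.79 in wild-type and from 2.55 through 5.36 to 6.47 in knockout spleens. WT1, WT6 and KO6 were again the low spleens, at 2.81, 2.84 and 2.55, while the other 10 lay between 4.77 and 6.47. Its correlation with Alas2 was 0.977, and the adjusted p of its slope was 2.25e-06 in limma. Rhd, of the Rh blood group complex, ranged from -0.11 to 4.47 with the same 3 low spleens. Hba-a1, an alpha globin, had an SD of 0.69 and r = 0.97 with Alas2. The genes of highest correlation with Alas2, neither of them a list member, were Pdzk1ip1, a small membrane protein, at r = 0.987, and Dnaja4, a chaperone of the Hsp40 family, at 0.984.

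Much of the spread of the erythroid mean lay between slides, while 0 of the 45 members were called in limma's F test of slide, against 1.22% of all genes. The mean residual of the 45 members was lowest in KO6, WT1 and WT6 (-1.66, -1.03 and -0.98) and highest in WT2 and KO2 (0.96 and 0.91). WT6 and KO6, the pair on slide 4, had a slide mean of -1.32, and slide 2, with WT2, KO2 and KO3, of 0.72, so that 73.6% of the variance of this mean lay between slides, against a median of 53.4% for single genes. With 5 slides, part of the variance of any gene lies between them even without an effect of slide. WT1 was low on slide 1 while KO1 and WT5 of that slide were not. Within slides the erythroid genes still correlated with Alas2, with a median r of 0.86 that was above 0 for 44 of 44. With slide as a fixed term, which leaves 7 degrees of freedom before the slope, only 2 of the 44 passed and 13 genes in all rather than 288. Without KO6, 29 of the 44 rose and 120 genes passed in all. Without KO2 and without KO5, 189 and 445 genes passed in all.

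**Figure D2:**
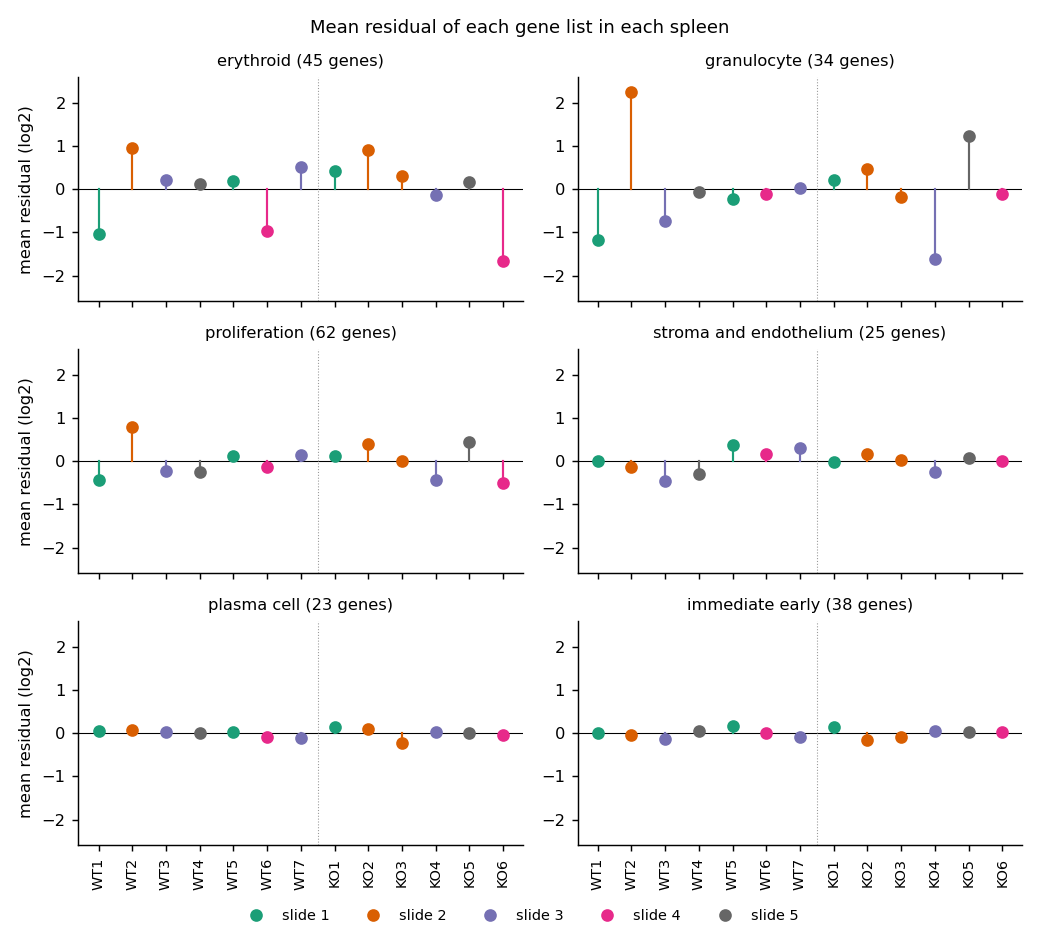
Mean residual (log2) of the members of 6 gene lists in each of the 13 spleens, with lines drawn from 0 and colours by slide. The erythroid panel is lowest in KO6, WT1 and WT6, the granulocyte panel runs from -1.62 in KO4 to 2.26 in WT2, and the plasma cell and immediate early panels stay near 0.

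Granulocyte genes had the largest median SD of the 20 lists examined. Neutrophil precursors fill primary granules with proteases and myeloperoxidase, later precursors fill secondary granules with lactoferrin and cathelicidin, and mature cells carry chemokine and formyl peptide receptors. All 34 members on the array passed the filter, with a median SD of 1.12, and 33 had an SD of at least 0.5. Without WT2 the median SD of the list was 0.798, its lowest over the arrays left out. Camp, the cathelicidin of secondary granules, ran from 3.35 through a median of 4.40 to 6.93 in wild-type and from 3.95 through 5.6 to 6.68 in knockout spleens. WT2 and KO5 were highest, at 6.93 and 6.68, and WT1 and KO4 lowest, at 3.35 and 3.95.

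With Camp 970 genes (7.89%) rose and 715 (5.81%) fell in limma's test over all genes, and 32 of the other 33 granulocyte genes rose. The exception was Il1b, an inflammatory cytokine (r = 0.61). The 6 primary granule genes had a median SD of 1.36, and the 8 secondary granule genes of 1.23. Elane was nearest to Camp of all genes, at r = 0.987. Its level ran from -3.86 through -2.54 to 0.69 in wild-type and from -3.19 through -1.03 to 0.74 in knockout spleens, with WT2 and KO5 on top. The 20 passing genes of mature cells had a median SD of 0.971, from 0.38 in S100a9, a calcium-binding protein that was bright everywhere at 7.34 to 8.67, to 1.31 in Retnlg, a resistin-like protein. Ankrd22, Orm1, Orm2 and Fcnb, of which Orm1 and Orm2 encode acute-phase orosomucoids and Fcnb a ficolin of granules, were also among the 8 genes nearest to Camp.

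Ltf, the lactoferrin gene, had a match to TTGCNNAA, the core bound by factors of the C/EBP family, and is printed as the secondary granule member of the list, 1 of 30 members with a window. Its window is chr9:111019042-111019341 on the plus strand of GRCm38.p6, and the capitals mark the match, which lies on the other strand as TTNNGCAA.
Ltf: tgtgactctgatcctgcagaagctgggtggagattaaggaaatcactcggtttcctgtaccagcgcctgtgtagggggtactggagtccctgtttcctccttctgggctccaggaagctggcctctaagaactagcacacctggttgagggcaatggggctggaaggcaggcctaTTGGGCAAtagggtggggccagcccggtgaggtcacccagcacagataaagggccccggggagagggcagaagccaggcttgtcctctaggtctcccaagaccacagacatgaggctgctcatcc
On either strand 10 of the 30 windows (33.3%) held the motif, against 8.51% of all 9877, and the Camp window did not.

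Of the variance of the granulocyte mean residual, 47.4% lay between slides, against a median of 53.4% for single genes. WT2 stood at 2.26 and its slide partners KO2 and KO3 at 0.46 and -0.17, and KO5 stood at 1.24 while WT4 of the same slide was at -0.06. Within slides the members correlated with Camp with a median r of 0.93, and 27 of 33 passed with slide as a fixed term. WT2 weighed most, since without it 24 of 33 rose and the genes that passed in all dropped from 1685 to 294. The totals without KO4 and without KO5 were 945 and 899. Genes of mast cells, basophils and eosinophils moved the same way, with 9 of 10 rising with Camp and a median SD of 0.729. B cell genes moved the other way, since 12 of 16 fell with Camp, at a median r of -0.74, though their own SD was small, with a median of 0.226. WT2, KO2 and KO5 had the lowest B cell means, at -0.39, -0.23 and -0.25, and the other 10 lay between -0.09 and 0.24.

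Of 62 cell division genes 54 rose with Camp and 6 with Alas2, and the difference between these counts was not tested. Their median r was 0.86 with Camp and 0.58 with Alas2, against -0.19 and -0.10 for all genes. The list holds replication factors, mitotic kinases and motors, and transcription factors of the cell cycle. Of its 63 members on the array 62 passed, with a median SD of 0.462 and 24 at 0.5 or more. Top2a, the topoisomerase of dividing cells, ran from -1.28 through -0.68 to 0.38 in wild-type and from -0.66 through 0.13 to 0.95 in knockout spleens. WT2 and KO5 were the highest of their genotypes and WT1 and KO4 the lowest, as for Camp. With Top2a 995 genes (8.09%) rose and 855 (6.95%) fell in limma's test, among them 51 of 61 other members of the list, all rising, and all 34 granulocyte genes. Without WT2, 35 of the 61 rose and 695 genes passed in all, and without KO4 and KO5 1149 and 1111 passed in place of 1850. With slide as a fixed term 49 of the 61 rose.

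The mitotic genes spread more than the replication genes, with a median SD of 0.535 over 34 and of 0.321 over 23, and 30 of 33 and 17 of 23 rose with Top2a. Mki67, the Ki-67 proliferation antigen, ran from 2.86 through 3.77 to 5.05 in wild-type and from 3.70 through 4.84 to 5.47 in knockout spleens. Here KO2, at 5.47, and not KO5, at 4.91, was the highest knockout spleen, and the correlation with Top2a was 0.73. Cdk1, the kinase of mitotic entry, had r = 0.95 and Stmn1, a regulator of microtubules, r = 0.95. Foxm1, Mybl2, E2f1 and E2f8 rose among the factors, and E2f2 did not pass (r = 0.52). Bub1, a spindle checkpoint kinase, went the other way at r = -0.47 without passing. Its level differed between slides instead, with 92.0% of its variance between them and an adjusted p of 0.0187 in limma's F test.

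The windows of Top2a and Ccnb2, a mitotic cyclin, are shown because the CCAAT box, bound by the factor NF-Y, occurs more than once in both. They are chr11:99024140-99024439 on the minus strand and chr9:70421505-70421804 on the minus strand of GRCm38.p6, and capitals mark CCAAT or, on the other strand, ATTGG, of which Top2a has 6 and Ccnb2 has 3.
Top2a: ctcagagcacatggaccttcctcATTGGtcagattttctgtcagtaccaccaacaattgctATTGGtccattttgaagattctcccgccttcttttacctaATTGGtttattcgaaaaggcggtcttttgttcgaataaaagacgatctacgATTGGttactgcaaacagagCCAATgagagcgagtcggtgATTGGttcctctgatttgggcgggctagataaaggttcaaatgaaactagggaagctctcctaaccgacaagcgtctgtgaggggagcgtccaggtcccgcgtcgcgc
Ccnb2: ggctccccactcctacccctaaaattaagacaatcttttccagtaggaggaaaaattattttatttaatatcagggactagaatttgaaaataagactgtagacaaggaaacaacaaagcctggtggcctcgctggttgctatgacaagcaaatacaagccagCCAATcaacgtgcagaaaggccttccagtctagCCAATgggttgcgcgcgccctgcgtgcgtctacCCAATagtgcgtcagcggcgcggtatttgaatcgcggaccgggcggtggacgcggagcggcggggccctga
At least 1 such box was found in 36 of the 50 members with a window (72%) and in 38.8% of all 9877. The letters TTTGAA, the core of the cell cycle homology region, were found on either strand in 25 of the 50 (50%) and in 12.2% of all, and they stay in lower case above unless they share a base with a CCAAT box.

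Top2a and Camp had the lowest p of the 15 pairs among the 6 genes that stood for the lists. Over 13 spleens r was 0.93 and rho 0.88, with permutation p of 2e-05 and 0.00017, which became 3e-04 and 0.00255 after Benjamini-Hochberg adjustment over the 15 pairs. Without WT2 and KO5, the 2 spleens farthest from the median of Top2a, r was 0.85. It was 0.93 in wild-type and 0.94 in knockout spleens, and within slides it was 0.92 with an adjusted permutation p of 0.0193. Of the other 14 pairs only Col1a2 and Fos had an adjusted p below 0.05 for r (r = -0.61, adjusted permutation p = 0.0488), its rho did not pass (rho = -0.59, adjusted permutation p = 0.17), and within slides r was -0.33. Alas2 had r = 0.36 with Top2a and 0.55 with Camp, with adjusted permutation p of 0.416 and 0.242. Over the list means the cell division genes correlated with the granulocyte genes at r = 0.88, with red cell genes at 0.76 (rho 0.78 and 0.81), with macrophage genes at 0.87 and with B cell genes at -0.92, which is a description over 13 arrays that share slides and scale. Of the genes nearest to Top2a, the first was Ms4a3 (r = 0.972), a gene of granulocyte and monocyte precursors, and not a cell cycle gene.

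**Figure D3:**
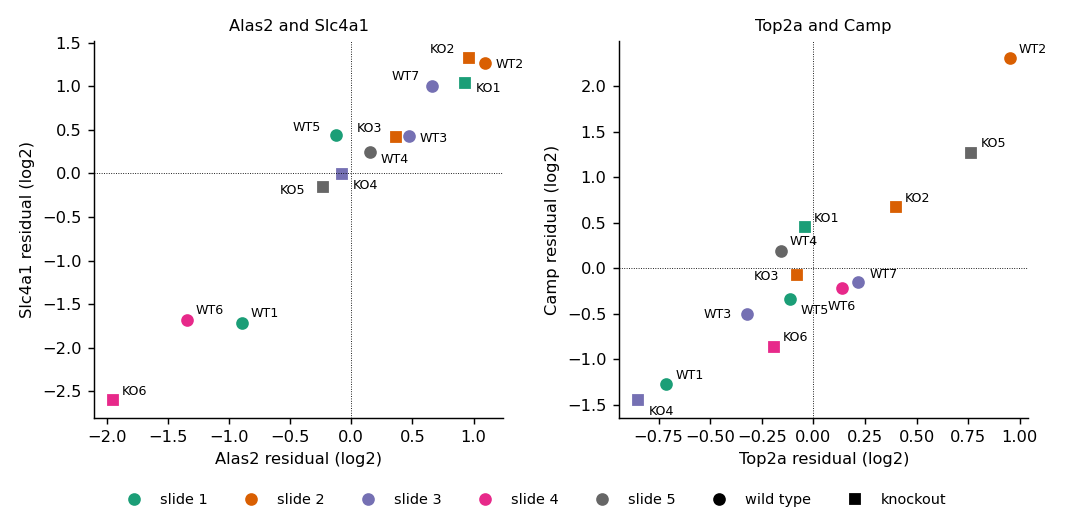
Residuals (log2) of Slc4a1 against Alas2, left, and of Camp against Top2a, right, with 1 point per spleen, circles for wild-type and squares for knockout, and colours by slide. KO6, WT6 and WT1 lie apart at the low end on the left, while on the right the points lie along a line from KO4 and WT1 to WT2.

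Stromal genes did not move as a single set. Of 58 listed genes 57 were on the array and only 25 passed the filter, among them 6 of 20 matrix, 10 of 15 endothelial, 3 of 10 reticular, 4 of 7 smooth muscle and 2 of 6 mesothelial genes. The fibrillar collagen genes Col1a1 and Col3a1 did not pass. The 25 had a median SD of 0.50, or 0.289 with normexp background correction, and 12 reached 0.5, but they are dim and their mean pairwise correlation was 0.10, against 0.85 for the erythroid and 0.89 for the granulocyte list. Col1a2, the collagen gene that passed, ran from -3.63 through -3.19 to -2.49 in wild-type and from -4.16 through -3.46 to -2.19 in knockout spleens, with WT6 and KO6 of slide 4 on top. In limma's test 0 genes (0% of all) rose and 0 (0%) fell with Col1a2, while 1489 of 12298 (12.1%) had an unadjusted p below 0.05, with a smallest adjusted p of 0.0725. Without KO4 and without WT7 the count was 6 and 3.

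Ccl19, the chemokine that reticular cells of the T zone make, had the largest SD of the list, 1.09, and lay lowest in KO4 at -3.40 and highest in WT5 at 0.47. Its second probe followed it loosely (r = 0.29). Decorin, encoded by Dcn, lay highest in WT4 at -1.83 and lowest in KO5 at -5.33, a pair on the same slide. Smooth muscle genes were the steadiest of the list, with a median SD of 0.257 and 0 of 4 at 0.5 or more, among them Acta2, smooth muscle actin, with 0.24.

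Some stromal genes differed between the female and male wild-type spleens. Sparc, a matrix protein, ran from -4.15 through -3.06 to -1.41 in wild-type spleens, where the females WT5 to WT7 stood at -1.5, -1.70 and -1.41 and the 4 males between -4.15 and -3.06. In the knockout spleens, all female, it ran from -3.55 through -3.02 to -2.10, between the other 2 sets and overlapping the males. With genotype and sex in the model, limma called 77 genes higher in females (0.626%) and 3 lower (0.0244%). Sparc was higher by 2.10 ± 0.33 (SE; adjusted p = 0.0136), and the stromal list gave 3 more, Col4a1, a basement membrane collagen, Plvap, of endothelial diaphragms, and Robo4, a receptor of endothelium, which is 4 of 25. By role 2 of the 10 endothelial genes, Plvap and Robo4, and 2 of the 6 matrix genes were called, and 8 endothelial genes, among them Cdh5 and Pecam1, were not.

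Of the called genes outside the list, some known from endothelium are named here after their values were seen, with no test of that theme. Stab1, a scavenger receptor of sinus endothelium, was higher by 1.78 ± 0.22, Mmrn2, an endothelial matrix protein, by 2.79 ± 0.43, and Cldn5, a tight junction protein, by 2.31 ± 0.45. Fstl1, a secreted follistatin-like protein, had the lowest adjusted p, 0.00446, at a difference of 2.21 ± 0.23. Emp1, an epithelial membrane protein, had the largest difference of the set, 2.90 ± 0.43. The set also held X-linked genes of small difference such as Eif2s3x, a translation factor known to escape X inactivation, at 0.66 ± 0.11. Its lower genes were Jchain, Chst1 and Paqr8.

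Sex cannot be told apart from the range of animal numbers in this comparison, because the 3 wild-type females are also the 3 wild-type mice of the higher range. The knockout spleens, all female, hold both ranges, which lie on different slides among them. There the 77 genes were higher in KO5 and KO6 than in KO1 to KO4 by a median of 0.153, with 57 of 77 (74.0%) above 0 against 42.7% of all genes, while their median difference in wild-type spleens was 1.24. With slide as a fixed term 1 gene was called in place of 80, and with slide as a random block 127. Without WT6, WT7, WT5, WT3 or WT4 the count was 2, 9, 22, 37 or 39.

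Some genes differed with the range of animal numbers. With genotype and sex in the model the range is estimated in the knockout spleens, as KO5 and KO6 against KO1 to KO4. In that contrast limma called 7 genes higher in the higher range (0.0569%) and 12 lower (0.0976%). KO5 lay on slide 5 and KO6 on slide 4, which held no other knockout spleen, while KO1 to KO4 lay on slides 1 to 3. Range and slide therefore cannot be told apart in this contrast, and slide was not in the model. Evc had the largest change, -5.72 ± 0.34 (adjusted p = 1.65e-05). Of its 2 probes on the array only 1 passed the filter. Its level was -5.25 in KO5 and -4.59 in KO6 and between 0.07 and 1.14 in KO1 to KO4. The wild-type spleens, which the fit did not use for this term, split the same way, with -5.50, -5.21 and -6.38 in WT5 to WT7 and 0.73 to 1.03 in WT1 to WT4. All 5 mice of the higher range were thus low and the other 8 high, with no value between -4.59 and 0.07. Slides 1, 3 and 5 each held both low and high spleens. Afap1, an actin filament-associated protein, and Rps4l, a relative of ribosomal protein S4, split the same way, with changes of -2.6 ± 0.31 and -3.74 ± 0.37.

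Of these 19 genes 8 lay on chromosome 5, which is 1.02% of its 782 tested genes, and 4 on chromosome 6, which is 0.642% of 623. Of all 12299 genes 0.0569% were called higher and 0.0976% lower. Among the 8 were Evc, Afap1, Tctn2, P2rx7, Acacb, Aacs and Fam222a. Acacb, an acetyl-CoA carboxylase, was lower by 2.71 ± 0.36, while P2rx7, a channel gated by extracellular ATP, was higher by 1.5 ± 0.19. Mst1r, a receptor kinase, was higher by 2.78 ± 0.47, and Mst1, which encodes its ligand, was lower by 1.37 ± 0.18. These values come from the knockout spleens. In the wild-type spleens, where range and sex are the same split, the differences were -1.49 for Acacb and 1.41 for P2rx7. They were 0.43 for Mst1r and -0.52 for Mst1, and none of these 4 had an adjusted p below 0.05 in limma's test of sex. That model had no range term, so the split among the knockout spleens counted as noise in it. Evc did not pass there either (limma's adjusted p = 0.0632). The test therefore cannot show which of the 4 genes split in the wild-type spleens. Without the sex term, where the wild-type spleens enter and range and sex are mixed again, 141 of all 12299 genes were called. Of these 32 lay on chromosome 5 (4.09% of its genes) and 9 on chromosome 18 (3.18%). Without KO5, 2 genes were called, without KO1 12 and without KO4 29.

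Around Evc the split reached neighbouring genes. In the gene order of the RefSeq annotation, 9 of the 200 tested genes nearest to Evc had a residual correlation with it of at least 0.8 in size, against 1.52% of all genes. Afap1, 11 tested genes away, had r = 0.97, and its second probe followed its first (r = 0.93). Hs3st1, an enzyme of heparan sulfate synthesis, 11 tested genes away on the other side, had r = -0.90, and Msantd1, 21 away, r = -0.86. Hs3st1 stood at 1.02, 1.09 and 1.43 in WT5 to WT7 and at 2.25, 1.87 and 2.19 in KO4 to KO6, while the other 7 spleens lay between -2.66 and -0.44. KO4, of the lower range, was therefore with the higher range for Hs3st1 and with the lower range for Evc.

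**Figure D4:**
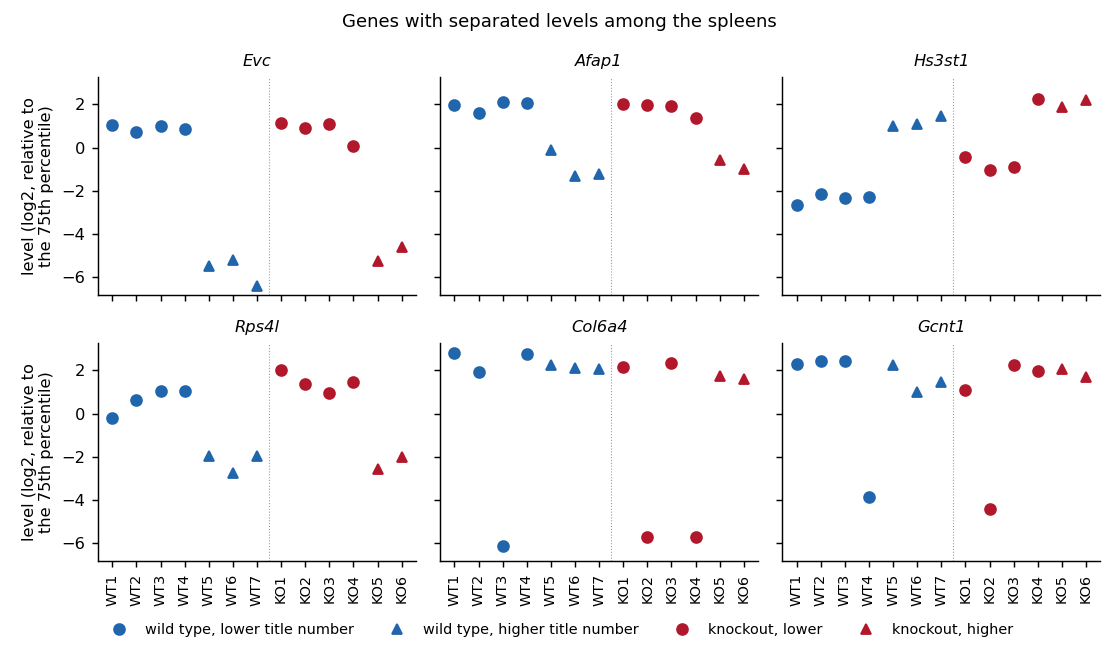
Levels (log2, relative to the 75th percentile) of 6 genes in each of the 13 spleens, blue for wild-type and red for knockout, with triangles for mice of the higher range of animal numbers. Evc, Afap1 and Rps4l separate the 5 triangles from the circles, Hs3st1 does so except for KO4, and Col6a4 and Gcnt1 are low in 3 and 2 spleens that are all circles.

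In other genes a few spleens stood far below the rest without making up a whole sex, range or slide. Col6a4 was at -6.11 in WT3, -5.70 in KO2 and -5.73 in KO4, and between 1.57 and 2.80 in the other 10 spleens, so its SD of 3.57 was the largest of all. Its second probe lay between -5.6 and -4.33 in all 13 and did not follow (r = -0.01). Gcnt1 was at -3.86 in WT4 and -4.43 in KO2, against 0.99 to 2.43 in the others, and 2 further probes of the gene ran opposite with small spread (r = -0.77 and -0.73, SD 0.306 and 0.307). Cdkn1b, the cell cycle inhibitor p27, was at -0.54 in WT6 and -0.57 in WT7 against 0.71 to 1.88 elsewhere, and its second probe did not follow either (r = -0.32). None of the 200 tested genes nearest to Col6a4 reached a correlation of 0.8 in size (0 of 200), against 0.0407% of all genes, and 3 of 200 did so for Gcnt1, against 0.0732% of all genes. Where probes of a gene differ in this way, the value belongs to the probe and not to the whole transcript.

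In other genes 1 spleen stood apart. Magi1 was at 2.07 in WT2 and between -5.54 and -4.03 in the other 12. Slc15a2 was at -4.68 in KO6 and between 0.32 and 2.39 in the rest. Without the spleen that stood apart the SD of Magi1 was 0.47 and that of Slc15a2 0.61. Syt6, Lgr4, a receptor for R-spondins, Eml6 and Kif12, a kinesin, were all lowest in KO4, at -6.36, -5.94, -4.32 and -4.21. They differed among the other spleens too, and without KO4 the SD of Syt6 was still 1.33. Residuals of Syt6 were -4.27 in KO4, -1.87 in WT6 and 2.59 in KO1. Average-linkage clustering, added after seeing the data, placed these 4 genes and Ccl19 in 1 block of 14 genes. Vpreb1, the surrogate light chain of B cell precursors, ran from -1.47 in KO6 to 2.30 in WT2 and KO1, with an SD of 1.32.

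Plasma cell genes had a median SD close to that of all genes, though not to that of the brightest. Plasma cells secrete antibody, joined into polymers by the J chain, through an expanded secretory pathway. All 23 members on the array passed, and their median SD of 0.202 was close to the 0.210 of all genes. Their mean level was 2.12 in wild-type and 2.55 in knockout spleens. At such levels genes spread less, with a median SD of 0.182 over the 3074 genes at 0.49 to 2.38 and of 0.166 over the 3075 brightest. Only Tnfrsf17, the survival receptor BCMA, reached 0.5, with 0.54. The 14 genes of the secretory pathway had a median SD of 0.163. Ighm, Igha, Ighg1 and Igkc had no probe under these symbols. Jchain ran from 4.03 through 5.01 to 5.48 in wild-type and from 5.69 through 6.18 to 6.45 in knockout spleens, with no overlap between genotypes. The females WT5 to WT7 were the lowest, at 4.2, 4.03 and 4.24, below the males by 1.03 ± 0.18 (SE; limma's adjusted p = 0.0211).

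In limma's test 2 genes (0.0163%) rose with Jchain, Tnfrsf17 (r = 0.96, adjusted p = 0.00149) and Chst1, a sulfotransferase (r = 0.91, adjusted p = 0.0201), and 3 (0.0244%) fell, among them Dmrt3 and Galnt14. The other 21 plasma cell genes did not pass, among them Xbp1, which drives the secretory programme, at r = 0.75. With genotype and sex removed, or with slide in the model, 0 genes passed, and over the arrays left out the count ran from 1 to 43, the former without WT2, WT5 or WT7 and the latter without KO3. It was 2 without WT6, 3 without KO2, 8 without WT1 and 10 without WT3.

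Immediate early genes also had a median SD close to that of all genes. They include the AP-1 and EGR factors, which appear within minutes of a stimulus, and the phosphatases and RNA-binding proteins that shut the response down. Of 39 on the array 38 passed, with a median SD of 0.224, and 2 reached 0.5, Fosl1, an AP-1 subunit, with 0.84 and Ier3 with 0.58. The list was bright, at a mean level of 3.55 in wild-type and 4.05 in knockout spleens. Its median SD was above the 0.166 of the 3075 brightest genes, which lay at 2.38 or more. Fos itself ran from 3.73 through 4.03 to 4.69 in wild-type and from 4.28 through 4.57 to 4.74 in knockout spleens, highest in WT1 and KO3. Egr1 ran from 3.32 to 4.35 and Nr4a1, an orphan nuclear receptor, from 7.29 to 8.13 over all 13. In limma's test 0 genes (0% of all) rose and 0 (0%) fell with Fos, while 749 of 12298 (6.09%) had an unadjusted p below 0.05, with a smallest adjusted p of 0.0847.

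The correlation of the other members with Fos had a median of 0.16, although Jun and Junb, partners of Fos in AP-1, and Ier2 had r = 0.79, 0.75 and 0.82. With slide as a fixed term 94 genes passed with Fos. With Top2a 10 of the 38 members fell and 3 rose, where 6.95% of all genes fell and 8.09% rose. Fosl1, the member of largest spread, was highest in WT2 and KO5 of their genotypes, at -3.44 and -2.26, the same 2 spleens that led for Camp and Top2a.

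The genes that differed between slides were mostly dim. With genotype in the model, limma's F test called 150 genes (1.22%) that differed between the 5 slides. Of these 118 were among the 3075 dimmest genes, where 3.84% were called, against 0.0650% of the 3075 brightest, and their median level was -3.81. The lowest adjusted p, 0.00140, was shared by Cfap20dc and Muc5ac, a gel-forming mucin. Cfap20dc had mean residuals of -1.46 on slide 1 and 1.38 on slide 2. Fbxw21, an F-box protein, was low on slide 5 alone, at -5.55 in WT4 and -5.87 in KO5 against -4.53 to -3.94 elsewhere (adjusted p = 0.00961). Of the 100 genes of largest SD 0 were called, against 1.22% of all. With a different background correction 4 genes were called, and over the arrays left out the count ran from 14 without KO5 to 233 without WT1, with 82, 56, 91, 45, 54, 86 and 59 without WT2, WT3, WT5, WT6, KO2, KO3 and KO6.

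Across all genes, arrays on a slide resembled each other more than arrays on different slides. The residual correlation averaged 0.14 over 11 pairs on the same slide and -0.12 over 67 pairs on different slides, a difference of 0.26 with p = 0.0179 in an exact two-sided permutation test of the slide labels within genotype (453600 arrangements). The most alike pairs were WT6 and KO6 (r = 0.62), WT2 and KO2 (0.54) and WT3 and KO4 (0.54), each on 1 slide and of opposite genotype. The pair WT3 and WT7, on slide 3 as well, was at -0.36. Centring on genotype makes pairs of the same genotype correlate negatively on average. The permuted arrangements averaged a difference of 0.038, and the p was taken about that mean. Leaving out KO6, WT6 or KO2 gave differences of 0.17, 0.20 and 0.22 with exact p of 0.154, 0.0912 and 0.125. WT6 and KO6 were also alike in red cell genes, with mean residuals of -0.98 and -1.66, and WT2 and KO2 with 0.96 and 0.91, and the part of these genes in the difference was not tested.

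**Figure D5:**
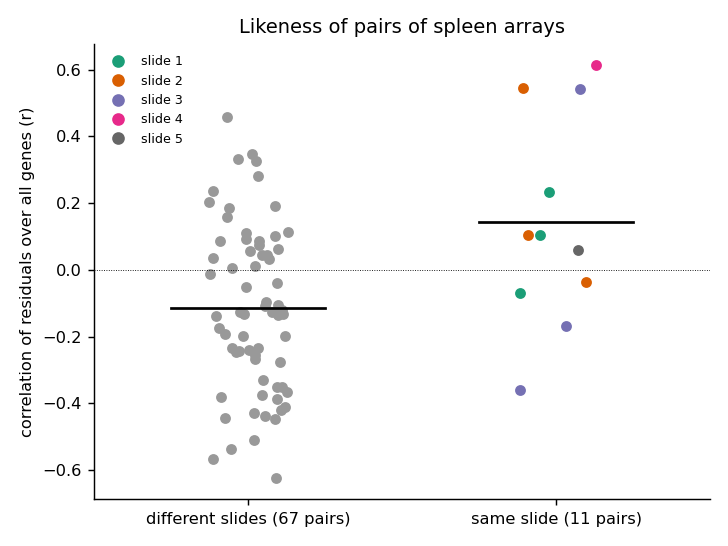
Correlation of residuals over all 12299 genes for each pair of spleen arrays, 67 pairs on different slides (grey) and 11 on the same slide (colour by slide), with bars at the means of -0.12 and 0.14. The 3 highest pairs share a slide, and the same-slide pairs also reach down to -0.36.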

How the data were processed

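RNA of 13 spleens was labelled with a single dye and hybridised to Agilent mouse arrays. The authors deposited scanner output of Agilent Feature Extraction 10.7.1.1, per the file headers, as an intensity per spot that the software had corrected for background, and no spot was saturated. They also deposited a value table of log2 values of the same arrays, centred near 0 by array, which served as an alternative and whose differences between arrays correlated with those of the scanner files at 1. From the scanner files, log2 of the processed intensity minus the 75th percentile of the array was taken, after leaving out 1639 control spots per array. A gene was kept where a probe was well above background on all 13 arrays, and stood for by the probe of highest mean level, which gave 12299 genes. The number of arrays limits the precision.

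Each gene was centred on its genotype mean. Tests across genes used limma 3.58.1 in R 4.3.3 with Benjamini-Hochberg adjustment over all genes tested at 0.05. Their terms were genotype with, in turn, slide, sex, sex and number range, or the level of 1 gene standing for a list. Correlations between those genes used 100000 permutations within genotype. Single values over arrays used exact permutation tests. On simulated data with 200 changed genes, 80.5% were recovered for slide at a size of 1.5, 73.5% for sex at 1, 85% for number range at 1.5 and 71% for a gene standing for a list. False calls numbered 8, 7, 10 and 6. Noise was drawn for each gene independently, while many genes of these spleens move together, so these shares need not hold for the real data. Promoters came from RefSeq tables of GRCm38.p6, as did gene order. The arrays, gene lists and rules were chosen with earlier results of these data known. The genes named are the 30 of largest SD, the genes that stand for the lists and the 8 nearest to each, up to 5 members per list by SD, and genes with a gap of at least 1 between 2 sets of spleens. Other list members, the genes called for sex and number range, and those that stood apart in 1 spleen were chosen after their values were seen. The alternatives were other scalings, background corrections, filters, probe rules, centrings, the median absolute deviation, slide terms and arrays left out. The lymphoma arrays were not analysed here, apart from a repeated pair.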

Additional observations from a re-analysis of the deposited data

Results flagged for a closer look

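Within each genotype the highest and the lowest spleen were compared with the rest by Dixon's criterion, in 118 groups of values, of which 20 stood apart. Of the 40 groups of list means 4 did, where chance gives about 1 in 20. Most other groups came from 38 genes, many chosen for a large SD or a gap, so that chance rate does not hold for them and their values are a description.

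Many of these values were those of WT2, and most concerned granulocyte genes. Its mean residual over the granulocyte list was 2.26, while the next wild-type spleen was at 0.04. Its mean over mast cell, basophil and eosinophil genes was 1.59, against 0.21 in the next. Camp stood at 6.93 against 4.82, Lcn2 at 3.60 against 0.43 and Elane at 0.69 against -2.0. Prtn3 stood at 0.76 against -2.12, and Ceacam10, a cell adhesion protein, at 0.51 against -2.90. Inhba, an activin subunit, stood at 1.0 against -2.0, and Magi1 at 2.07 against -4.03. Over all genes the root mean square residual of WT2 was 0.467, and the next was 0.324. The part of WT2 in the granulocyte and cell division results is given with those results.

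In WT7 the mean residual of the heat shock genes was -0.85, against -0.10 in the next lowest wild-type spleen. In KO6 Slc15a2 stood at -4.68 against 0.53, and Btnl10, a butyrophilin-like protein, at -2.50 against 0.38. In KO5 the mean of skeletal muscle genes was -0.30, against 0.01.

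The other values concern WT3, WT4, KO2 and KO5. Col6a4 stood at -6.11 in WT3 against 1.91, and Pls3, an actin-bundling plastin, at -6.24 in WT3 against -3.03. Gcnt1 stood at -3.86 in WT4 against 0.99, and at -4.43 in KO2 against 1.08. Fbxw21 stood at -5.55 in WT4 against -4.53, and at -5.87 in KO5 against -4.40.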

How the results depend on the processing

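No called value changed sign. The difference in spread between knockout and wild-type spleens, which was not called, ran from -0.016 to 0.036 over the arrays left out and was -0.005 with genes above background on at least 6 arrays. No paired analysis was possible because the titles of the 2 genotypes share no replicate numbers. Arrays left out apart, 74 summary values under an alternative kept their side of the threshold or stayed within 1.5 times, 18 moved further and 3 lost their call. With normexp background correction 468 genes rather than 1015 had an SD of at least 0.5, 4 rather than 150 differed between slides, 3 rather than 5 followed Jchain, and Col1a2 and Fos had r = -0.56 (adjusted permutation p = 0.076). With genes above background on at least 6 arrays these counts were 1727, 230 and 10, and 3 genes followed Col1a2 and 1 followed Fos. With slide as a fixed term 1 gene rather than 80 was called for sex, 13 rather than 288 followed Alas2, 444 rather than 1685 followed Camp, 94 rather than 0 followed Fos and 0 followed Jchain, and Col1a2 and Fos had r = -0.33 (adjusted permutation p = 0.829). With slide as a random block 127 genes were called for sex. Without the sex term, chosen after seeing the data, 141 rather than 19 were called for number range. With genes centred on genotype and sex 0 genes followed Jchain, and Col1a2 and Fos had r = -0.51 (adjusted permutation p = 0.15). With array medians 2 and with the mean over probes 8 genes followed Jchain. The causes of these shifts were not tested. With the median absolute deviation in place of the SD, 55 of the 82 named gene SDs moved by more than the standard error of an SD over 13 arrays, and the granulocyte list median was 0.726 in place of 1.12. With normexp 37 of the 82 moved.

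With each array left out in turn, the count of genes of SD of at least 0.5 ran from 883 to 1088, of slide calls from 14 to 233, of sex calls from 2 to 110 and of number range calls from 2 to 29. The genes that followed Alas2 ran from 120 to 445, Top2a from 695 without WT2 to 1948, Camp from 294 to 1748, Col1a2 from 0 to 6 without KO4, and Jchain from 1 to 43, while 0 followed Fos in every case. Without KO4 and KO5 1149 and 1111 genes followed Top2a, and without WT7 3 followed Col1a2. The same-slide difference ran from 0.17 to 0.36, the correlation of Top2a and Camp from 0.90 to 0.95, and that of Col1a2 and Fos from -0.69 to -0.54, with an adjusted permutation p above 0.05 in 11 of 13. Dim genes limit what the slide and SD counts can show.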

Other observations

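Genes of the exocrine pancreas, an organ that lies beside the spleen, were among the dim genes, with a mean level of -3.29 in wild-type and -3.70 in knockout spleens. Of 29 listed acinar genes 23 were on the array and 12 passed the filter, with a median SD of 0.589 against 0.335 for the 3075 dimmest genes, and 10 reached 0.5. Their mean residual was highest in WT7 at 0.86 and KO3 at 0.63 and lowest in WT4 at -0.63. Amy1, an amylase, stood at 2.42 in WT7, and Try5, a trypsinogen, at -1.39. Among the genes of SD of at least 0.5, average-linkage clustering, added after seeing the data, placed Amy1, Try5, Clps, Prss3, Sycn and Cel in 1 block of 8 genes that also held Map2.

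Heat shock genes were low in WT7. Hspa1a, the inducible Hsp70, stood at 0.49 in WT7 and between 1.86 and 3.12 in the other wild-type spleens. The remaining lists had a median SD of 0.295 for interferon response, 0.254 for clock, 0.427 for glucocorticoid response, 0.271 for NK cell, 0.254 for T cell, 0.305 for dendritic cell, 0.246 for platelet, 0.419 for fat and 0.242 for skeletal muscle genes. Some of these lists share members with others.

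The same clustering gave 59 blocks, of which 14 held at least 10 genes and 864 of the 1015 in all. The largest, of 371 genes, held 33 of the granulocyte and 17 of the cell division genes. The second, of 189 genes, held 33 erythroid genes and Vpreb1. A block of 78 dim genes with a median level of -4.61 had a median of 88.9% of its variance between slides, and 45 of its genes were called for slide. A block of 77 genes led by Emp1, Mmrn2 and Ramp2 held 6 stromal genes.

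A lymphoma line was arrayed 2 times, with 1 array marked as a repeat and no word on what was repeated. Over 10702 genes the median absolute difference between these arrays was 0.302, while pairs of spleens of 1 genotype, 36 in all, differed by 0.129 to 0.282.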
